A study of Mus musculus with 425 samples.

Results

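The let-7 family of microRNAs (miRNAs) and Mirlet7bhg, the non-coding transcript that carries let-7b, were followed through the sperm and epididymis of mice with a deletion of Dgcr8. The members were chosen by name and comprised 9 small RNA features, with 1 gene copy for each mature sequence, and Mirlet7bhg in polyadenylated RNA, which makes 10 genes in all. The features are listed in the tables as Mirlet7a-1_seq, Mirlet7b_seq, Mirlet7c-1_seq, Mirlet7d_seq, Mirlet7e_seq, Mirlet7f-1_seq, Mirlet7g_seq, Mirlet7i_seq and Mir98_seq, and are given below without the ending. The small RNA tables held 2343 features, of which 1123 were miRNAs, and the mRNA table held 23845 genes. All 10 members were found.

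Dgcr8 is the RNA-binding partner of Drosha, the nuclease that cuts miRNA hairpins out of their primary transcripts. In the cKO males of the Stra8 line (Dgcr8fl/fl; Stra8-iCre) both floxed alleles met a Cre that is active in germ cells from the spermatogonial stage. In the cKO males of the Defb41 line (Dgcr8fl/fl; Defb41-iCre, written Defb-iCre for cKO sperm) the Cre is active in the principal cells of the caput, the head of the epididymis, so other cells keep Dgcr8. The controls of each line were Dgcr8+/fl with the same Cre, so every male carried Cre and at least 1 floxed allele, and the controls were heterozygous where Cre acted. The sources used here do not give the age or strain of the males. Small RNA was sequenced from cauda sperm and testicular sperm, and from cauda and caput epididymis, where the cauda is the tail in which mature sperm are stored. There were 4 cKO and 4 control libraries each for Stra8 cauda sperm, Stra8 testicular sperm and Defb41 testicular sperm, and 8 of each for Defb41 cauda sperm. Tissue small RNA came as 8 cKO and 6 control libraries for Stra8 cauda, 7 and 7 for Stra8 caput, 3 and 4 for Defb41 cauda, and 3 and 3 for Defb41 caput. Tissue mRNA had 4 cKO and 4 control libraries for Stra8 cauda, Defb41 cauda and Defb41 caput, and 3 of each for Stra8 caput. Single 4-cell embryos and morulae made with sperm of both lines, 313 in all, were read for Mirlet7bhg only. Those from Defb41 cKO sperm had been injected with control RNA or miRNA. Whether the libraries within a group stand for different animals is not stated, so the spread behind each p-value may be technical.

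let-7 miRNAs are loaded into Argonaute and repress mRNAs that pair with their seed, bases 2 to 8. They are abundant in differentiated cells, where they hold down growth genes such as Hmga2, Myc and Ras, and the RNA-binding proteins Lin28a and Lin28b block their maturation in stem cells and early embryos. Sperm leave the testis with germ cell miRNAs and are known to meet vesicles shed by the epididymal epithelium, which carry small RNAs, on their way to the cauda.

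The 9 mature sequences are shown because they decide what the counts can tell apart. They are from RefSeq (GRCm38.p6), which matched 9 of 9 names, and the seed is in capitals.
let-7a: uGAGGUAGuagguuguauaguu
let-7b: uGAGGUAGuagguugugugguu
let-7c: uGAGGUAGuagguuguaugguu
let-7d: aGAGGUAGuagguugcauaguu
let-7e: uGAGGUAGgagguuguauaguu
let-7f: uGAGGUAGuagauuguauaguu
let-7g: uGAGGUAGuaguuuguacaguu
let-7i: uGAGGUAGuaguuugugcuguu
miR-98: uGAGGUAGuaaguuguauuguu
All 9 share the seed GAGGUAG and a length of 22 bases. Among the 1679 distinct mature mouse miRNA names in RefSeq, 11 carry this seed, the others being let-7k and miR-1961. Counted from 1 at the 5′ end of let-7a, let-7c differs from it by A19G, let-7e by U9G and let-7f by G12A. let-7b differs by A17G and A19G, let-7d by U1A and U16C, let-7g by G12U and U18C, and miR-98 by G11A and A19U. let-7i is the farthest from let-7a, with G12U, A17G, U18C and A19U. A read of let-7a, let-7b, let-7c, let-7e or let-7f with 1 sequencing error can therefore match another member. How the authors' counting treated such reads is not given in the sources used here. let-7d, let-7g, let-7i and miR-98 each differ from every other listed member by more than 1 base.

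The genes lie apart in the genome. In GRCm38.p6 coordinates, mature let-7a (Mirlet7a-1) is at chr13:48538239-48538260, let-7f (Mirlet7f-1) at chr13:48537889-48537910 and let-7d at chr13:48536078-48536099, all on the minus strand and in no other annotated gene. Mature let-7c (Mirlet7c-1, chr16:77599672-77599693, plus strand) and let-7i (chr10:122985698-122985719, minus strand) are also in no other gene. Mature let-7b is at chr15:85707325-85707346 on the plus strand. Its hairpin and that of Mirlet7c-2 lie in the exon of the only annotated transcript of Mirlet7bhg, which RefSeq names Lncppara and places at chr15:85703773-85707524. let-7e (chr17:17830366-17830387, plus strand) sits in Spaca6, in an intron of 16 of its 17 transcripts. let-7g (chr9:106178846-106178867, plus strand) is in an intron of Wdr82, and miR-98 (chrX:151913229-151913250, plus strand) in an intron of Huwe1, which also holds Mirlet7f-2. Mirlet7a-2 is in an intron of Mir100hg, listed as 2610203C20Rik in the mRNA table.

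The 82 small RNA libraries held 615991 to 38690140 assigned reads (median 8875492), and levels are given per 1000000 reads of that total (RPM). Several libraries stood apart before any comparison. Replicate 5 of Defb41 cKO cauda sperm had a summed let-7 level, the 9 features together, of 51493.0 RPM, against 2328.0 to 16043.2 RPM in the other 7 libraries of its group. Control replicate 8 of the same sperm had 18701.6 RPM, against 1732.1 to 4419.0 RPM in the other 7. Replicates 5 to 8 of both genotypes of Defb41 cauda sperm carry another style of library name than replicates 1 to 4 and are treated below as a second library series. In Stra8 epididymis, replicates numbered up to 4 are likewise treated as a first library series and later ones as a second. Control replicate 2 of Defb41 caput epididymis was the shallowest library, with 615991 reads, and 45.12% of its reads were miRNA, against 74.19% to 87.26% in the other 5 Defb41 caput libraries. One Stra8 caput library has labels that disagree on its genotype and was left out of every comparison.

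Copies of a mature sequence could not be told apart. The ratio of Mirlet7a-2 to Mirlet7a-1 counts was 0.937 to 1.087 over the 82 libraries, and that of Mirlet7c-2 to Mirlet7c-1 was 0.908 to 1.07. Mirlet7f-2 exceeded Mirlet7f-1 in 81 of 82 libraries, with a median ratio of 1.10 (0.985 to 1.30). Levels below are those of the first copy, and shares of the family use all copies.

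The summed let-7 level was higher in the epididymis libraries of the Defb41 line than in most others. It was highest in Defb41 caput cKO, with 63049.4, 62547.0 and 54574.6 RPM in the 3 libraries, and all 3 lay above every library of the group next in order, Defb41 cauda control (24850.5 to 44665.0, median 39135.8 RPM). Defb41 cauda cKO followed (29367.0 to 38583.5, median 29692.9 RPM), then Defb41 caput control with the widest spread of any tissue group (60092.5, 6367.0 and 14217.9 RPM). Without its shallow replicate 2, the Defb41 caput control group still held 60092.5 and 14217.9 RPM.

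Stra8 epididymis was lower. Stra8 cauda cKO and control libraries had medians of 8121.6 RPM (6504.2 to 10467.8) and 8145.6 RPM (5157.0 to 9306.5), and Stra8 caput cKO and control 4802.0 RPM (3193.2 to 9420.4) and 6286.2 RPM (4535.8 to 9729.6). These ranges pool both library series. In Stra8 caput cKO the first series held 4850.8 to 9420.4 RPM and the second 3193.2 to 4802.0 RPM. The series overlapped in Stra8 caput control and Stra8 cauda cKO. Sperm overlapped this range. Medians were 3888.2 RPM in Stra8 cKO and 5007.9 RPM in Stra8 control cauda sperm, 2851.3 and 5889.0 RPM in Stra8 cKO and control testicular sperm, 3959.0 and 3812.4 RPM in Defb41 cKO and control cauda sperm, and 7627.6 and 4940.9 RPM in Defb41 cKO and control testicular sperm. The highest group median was 21.9 times the lowest, that of Stra8 cKO testicular sperm. Of the 15 pairs of neighbours in this order, 1 did not overlap, the top pair. No test of levels was made between the lines. Fewer cells of a type and less RNA per cell cannot be told apart in any of these bulk samples.

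**Figure D1:**
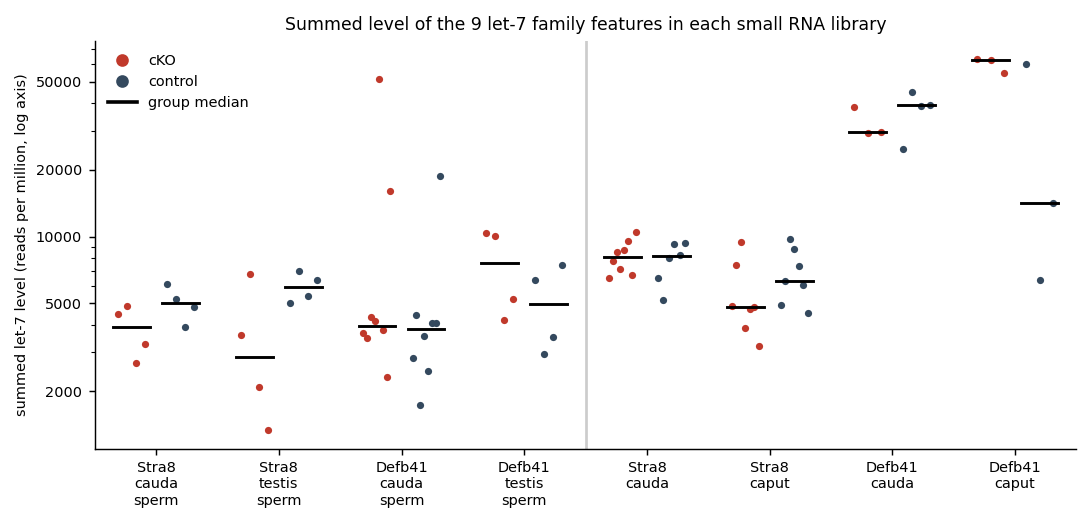
Summed level of the 9 let-7 family features in each small RNA library, in RPM on a log axis, with sperm groups on the left and epididymis groups on the right. Points are libraries (cKO red, control blue) and bars are group medians; the 3 Defb41 caput cKO libraries sit between 54574.6 and 63049.4, and replicate 5 of Defb41 cKO cauda sperm at 51493.0.

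As a share of miRNA reads the family ranked differently. The 9 features made up a median of 7.80% of miRNA reads in Defb41 caput cKO and 1.05% in Stra8 caput cKO, the highest and lowest of the 16 groups, and none of the 15 neighbouring pairs was separated. With the second copies of let-7a, let-7c and let-7f added, these medians were 14.3% and 1.66%. In sperm the median share ran from 2.85% in Stra8 control testicular sperm to 6.08% in Defb41 cKO testicular sperm. It was 2.92% in Stra8 cKO cauda sperm and 2.91% in Stra8 control cauda sperm. Mirlet7f-1 ranked 5th of the 1123 miRNA features in Defb41 caput cKO, Mirlet7c-1 7th, Mirlet7e 9th and Mirlet7a-1 11th, whereas Mir98 ranked 66th.

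The members varied to different extents. Each went with the summed level, which contains it, over the 16 groups, with a Spearman rho of 0.609 (Mirlet7e) to 0.932 (Mirlet7f-1). Across the 16 group medians, Mirlet7e, the copy inside Spaca6, varied the most, with a highest median 99.7 times its lowest, followed by Mirlet7f-1 (36.5 times), Mirlet7c-1 (34.3), Mirlet7a-1 (30.6), Mirlet7d (21.2), Mirlet7b (11.3), Mirlet7g (10.6), Mir98 (10.1) and Mirlet7i (6.17). Mirlet7e reached 7572.2 to 8484.2 RPM in Defb41 caput cKO and 2337.9 to 2954.1 RPM in Defb41 cauda cKO, against 57.69 to 174.6 RPM in Stra8 cauda cKO and 65.53 to 126.9 RPM in Stra8 caput cKO. Mirlet7g was the only member whose highest median was in the Stra8 line, 1328.2 RPM in Stra8 cauda control (955.0 to 1440.6).

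The make-up of the family differed between the tissues of the 2 lines. let-7f was the largest part in both, with 42.89% to 64.37% of family reads in the 28 grouped Stra8 epididymis libraries and 32.45% to 63.03% in the 13 of the Defb41 line. let-7g made up 7.79% to 12.04% in Stra8 and 0.835% to 3.45% in Defb41 epididymis, and let-7i 6.88% to 10.5% and 0.706% to 2.88%. let-7e showed the opposite order, with 0.495% to 1.46% in Stra8 and 3.79% to 7.63% in Defb41 epididymis, and so did let-7a, with 4.44% to 11.7% and 13.02% to 17.3%. None of these 4 ranges overlapped between the lines. Shares also differed between the library series of Stra8 epididymis. In Stra8 cauda cKO, let-7c made up 9.71% to 10.23% in the first series and 19.88% to 22.96% in the second. There let-7a made up 5.90% to 7.13% and 9.34% to 11.71%, while the ranges of let-7i overlapped. No test was made of the difference between the lines, and the part of library series in it was not tested.

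**Figure D2:**
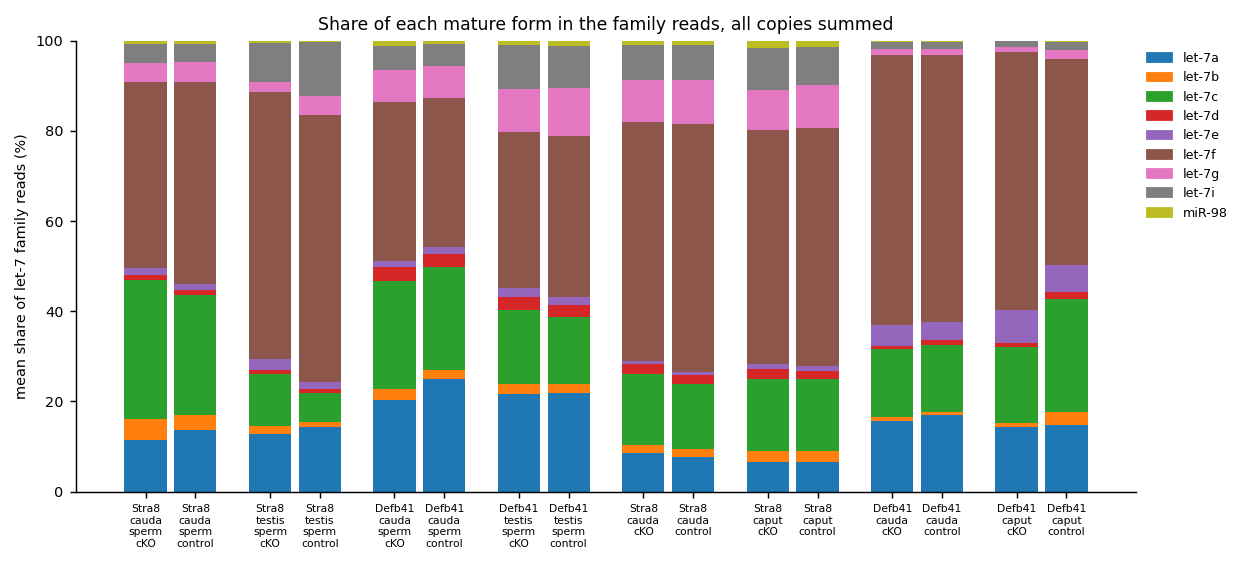
Mean share of each mature form in the reads of the whole let-7 family, all copies summed, in percent, for each of the 16 small RNA groups. let-7f fills the largest part of most bars, let-7c takes a larger part in Stra8 cauda sperm (24.31% to 37.05% in cKO and 14.3% to 36.59% in control libraries) than in Stra8 testicular sperm, and let-7g and let-7i are thin in Defb41 epididymis.

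Sperm transit from testis to cauda was examined first in the Stra8 line. Mirlet7c-1 had 856.6, 979.9, 1201.0 and 1351.5 RPM in control cauda sperm, against 373.5, 372.0, 315.2 and 350.3 RPM in control testicular sperm. Mirlet7b had 181.7, 245.7, 344.5 and 364.2 RPM in control cauda sperm and 92.8, 96.8, 125.0 and 75.47 RPM in control testicular sperm. For both, every cauda library lay above every testicular library.

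Mirlet7i went the other way, with 264.9, 436.8, 287.6 and 348.7 RPM in control cauda sperm and 1225.8, 1103.4, 1066.4 and 1508.5 RPM in control testicular sperm. Here all 4 cauda libraries lay below all 4 testicular ones. In edgeR's quasi-likelihood test with Benjamini-Hochberg adjustment over all features, Mirlet7b rose by 1.54 log2 units (SE 0.41, adjusted p = 0.00192) and Mirlet7c-1 by 1.64 (SE 0.38, adjusted p = 0.000553), and Mirlet7i fell by 1.87 (SE 0.39, adjusted p = 0.000174). These 3 calls were kept whichever 1 of the 8 libraries was left out. The other 6 members were not called, and their log2 fold changes were −0.47 to 0.92. These 3 of 9 calls stand against 72.7% of the 1178 features tested, 19.2% higher and 53.5% lower, with a median log2 fold change of −1.68 over all features. With composition factors (TMM) that median was 0.24 and 8 members were higher, among them Mirlet7b at 3.42 and Mirlet7c-1 at 3.56, while Mirlet7i was not called at 0.12. The share of all features called with TMM factors is not given here. Under both scalings Mirlet7b and Mirlet7c-1 had the highest values of the 9 members and Mirlet7i the lowest.

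Mirlet7b and Mirlet7c-1 also rose in cKO males. Mirlet7c-1 had 947.0, 1074.7, 873.9 and 1082.4 RPM in cKO cauda sperm and 312.1, 659.1, 264.1 and 165.1 RPM in cKO testicular sperm. Mirlet7b had 243.6, 331.2, 270.0 and 341.6 RPM in cKO cauda sperm, against 65.34, 155.2, 89.64 and 53.01 RPM in cKO testicular sperm. The groups did not overlap for either. edgeR gave log2 fold changes of 1.51 for Mirlet7c-1 (SE 0.41, adjusted p = 0.00416) and 1.71 for Mirlet7b (SE 0.38, adjusted p = 0.000975). These were 2 of 9 members, against 78% of 1107 features called, 28.5% higher and 49.5% lower, with an all-feature median of −1.03. Mirlet7i was at −0.90 (adjusted p = 0.137). Scaled to miRNA reads alone, Mirlet7b (0.96, adjusted p = 0.0737) and Mirlet7c-1 (0.83, adjusted p = 0.118) were no longer called, and Mirlet7i (−1.68, adjusted p = 0.00304), Mirlet7e (−1.16, adjusted p = 0.0262) and Mirlet7f-1 (−1.07, adjusted p = 0.0440) were called lower.

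In share of the family, let-7c made up 24.3% to 37.1% of let-7 reads in cKO cauda sperm and 9.04% to 13.9% in cKO testicular sperm, and 14.3% to 36.6% in control cauda sperm and 5.59% to 8.53% in control testicular sperm. let-7i made up 3.10% to 5.35% in cKO and 2.29% to 4.88% in control cauda sperm, against 7.84% to 9.20% in cKO and 8.58% to 14.6% in control testicular sperm. These shares do not depend on the scaling of the libraries, and the ranges did not overlap. Whether transit differed between genotypes was tested as an interaction, in which none of the 9 members was called (2.9% of 1276 features were). Mirlet7g had the largest value, a transit change 1.15 log2 units higher in cKO than in control (SE 0.59, adjusted p = 0.359).

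Markers of other cells moved with transit. The 5 epithelial miRNAs (Mir200a, Mir200b, Mir200c, Mir141 and Mir429) summed to 1132.6 to 4937.4 RPM in cKO and 1941.7 to 6921.3 RPM in control cauda sperm, against 66.04 to 398.5 RPM in cKO and 227.7 to 1188.2 RPM in control testicular sperm. The 7 germ cell miRNAs, among them Mir34c, summed to 3418.4 to 7999.1 RPM in control cauda sperm and 19821.5 to 26208.1 RPM in control testicular sperm. The 3 red cell miRNAs measured, of 5 listed, summed to 106.5 to 287.9 RPM in cKO and 205.2 to 573.0 RPM in control cauda sperm, against 3483.3 to 19486.3 RPM in cKO and 8154.6 to 34948.0 RPM in control testicular sperm. No marker of these lists was at 0 in a sperm library. Their part in the let-7 changes was not tested.

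In the Defb41 line, transit was tested on the first library series of cauda sperm (replicates 1 to 4 of each genotype), because the second was named differently. In controls none of the 9 members was called, against 46.5% of 1745 features in edgeR, where 1 member had an unadjusted p under 0.05 and DESeq2 called none. Log2 fold changes ran from −1.18 for Mirlet7e to 0.27 for Mirlet7c-1. In cKO males Mirlet7e had 52.85, 56.19, 54.23 and 53.8 RPM in cauda sperm, against 262.4, 206.2, 220.4 and 93.94 RPM in testicular sperm. All 4 cauda libraries lay below all 4 testicular ones. Mirlet7i had 339.1, 305.6, 568.5 and 477.3 RPM in cKO cauda sperm and 1504.8, 1806.2, 521.6 and 868.8 RPM in cKO testicular sperm, and here the groups overlapped.

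Mirlet7e fell by 1.85 log2 units in cKO cauda sperm (SE 0.52, adjusted p = 0.00399), Mirlet7i by 1.48 (SE 0.56, adjusted p = 0.0323) and Mirlet7a-1 by 1.35 (SE 0.55, adjusted p = 0.0451). The 3 of 9 stand against 42.9% of 2042 features called, 33.8% lower and 9.11% higher, with an all-feature median of −1.16. Mirlet7i and Mirlet7a-1 lost their calls without cauda replicate 1 or 2 or testicular replicate 1 or 2, and Mirlet7e kept its call in all 8 such fits. With TMM factors no member was called, and DESeq2 called Mirlet7b (1.05) and Mirlet7c-1 (1.40) higher. Scaled to miRNA reads, 8 of 9 members were called lower, from −3.01 for Mirlet7e to −1.50 for Mirlet7b, and Mirlet7c-1 was not called (−1.25, adjusted p = 0.0637). How many of all features that scaling called is not given, so this count cannot be set against them. None of the 9 members was called for a difference in transit between Defb41 genotypes (14.5% of 2161 features were).

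**Figure D3:**
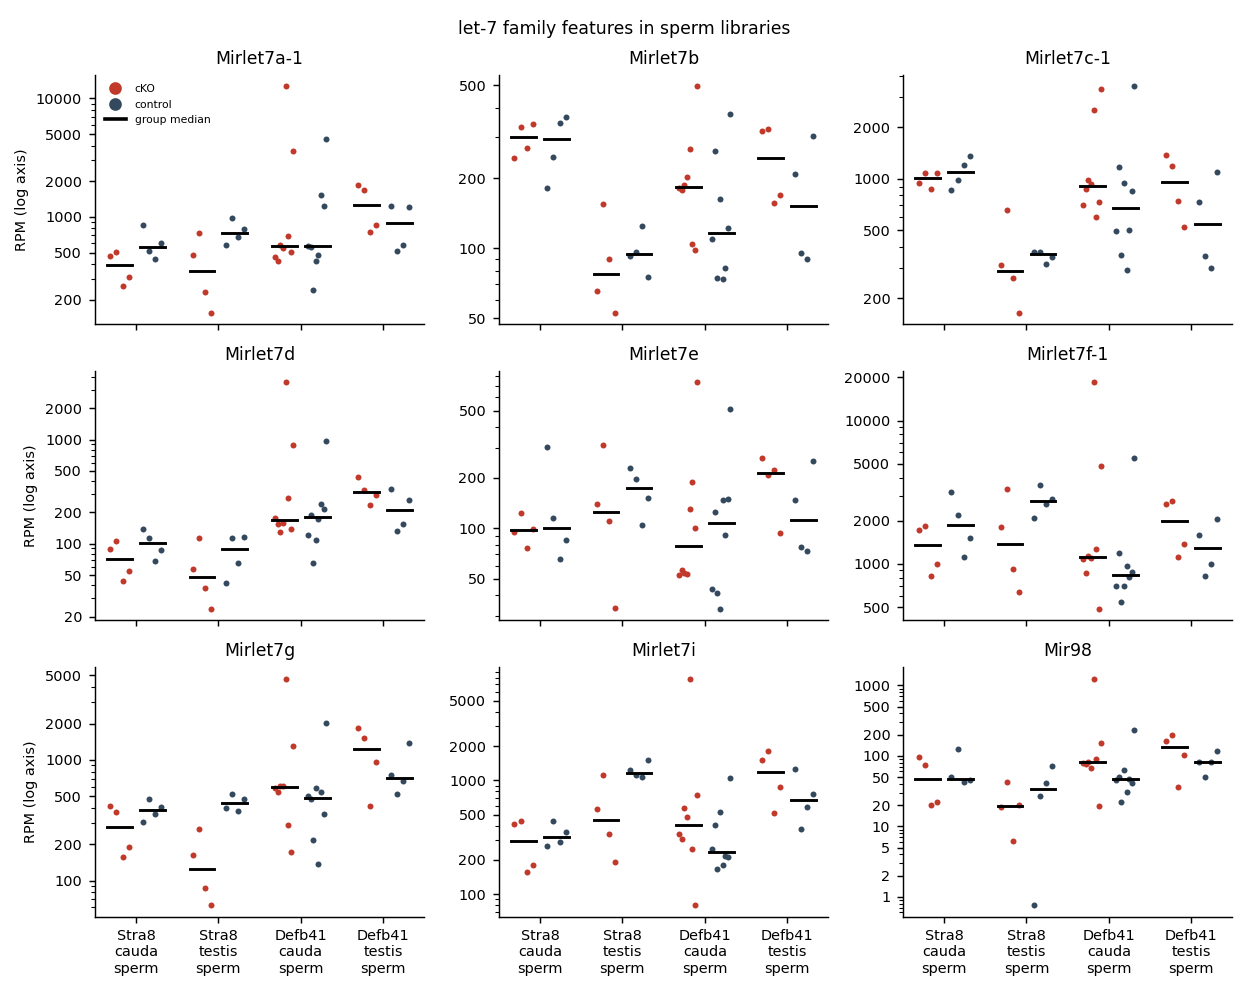
Level of each of the 9 let-7 features in every sperm library, in RPM on log axes that differ between panels. Points are libraries (cKO red, control blue) and bars are group medians; Mirlet7b and Mirlet7c-1 are higher in Stra8 cauda than Stra8 testicular sperm, Mirlet7i is lower in Stra8 control cauda than control testicular sperm, and replicate 5 of Defb41 cKO cauda sperm stands highest in 6 of the 9 panels.

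The genotype comparison asked whether let-7 depended on Dgcr8 in germ cells or in the caput. In Stra8 testicular sperm Mirlet7g had 163.4, 268.5, 86.97 and 62.55 RPM in cKO males and 399.4, 518.0, 376.9 and 471.7 RPM in controls, and the groups did not overlap. Mirlet7i had 560.7, 1124.3, 339.4 and 190.3 RPM in cKO males and 1225.8, 1103.4, 1066.4 and 1508.5 RPM in controls. Replicate 2 was the only cKO library within the control range, and it was the highest cKO library for all 9 members. It was also the highest for the summed germ cell (5074.3 RPM), red cell (19486.3), smooth muscle (18810.7) and epithelial miRNAs (398.5). Mirlet7c-1 had 312.1, 659.1, 264.1 and 165.1 RPM in cKO males, against 373.5, 372.0, 315.2 and 350.3 RPM in controls, so the cKO libraries lay on both sides of the controls.

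Mirlet7g fell by 1.605 log2 units (SE 0.41, adjusted p = 0.0216) and was the only 1 of 9 members called, against 13.7% of 1174 features, 0.681% higher and 13% lower. All 9 members had negative log2 fold changes, with a median of −0.69, beside −0.60 over all features and −1.46 over the 261 miRNAs tested, of which 77 fell. The next largest values were those of Mirlet7i (−1.15, adjusted p = 0.113) and Mirlet7a-1 (−0.92, adjusted p = 0.170), and the smallest was Mirlet7c-1 at −0.01. With TMM factors Mirlet7b, Mirlet7c-1 and Mirlet7e were positive (0.11 to 0.26) and uncalled. Without cKO replicate 2, 4 members were called (Mirlet7a-1, Mirlet7f-1, Mirlet7g and Mirlet7i), and without cKO replicate 1 or 3 or control replicate 2 or 4, none was.

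The Mirlet7g call was kept with TMM factors (−1.36, adjusted p = 0.0351) and in DESeq2 (−1.24, adjusted p = 0.00845), and was lost when libraries were scaled to miRNA reads (−0.29, adjusted p = 0.606). miRNA reads as a class were 3.151% to 13.36% of reads in cKO and 15.46% to 23.67% in control testicular sperm. The 9 features held 5.048%, 5.055%, 3.287% and 4.25% of miRNA reads in the cKO libraries and 2.428%, 4.503%, 2.999% and 2.698% in the controls. With that scaling Mirlet7b (1.31, adjusted p = 0.0185) and Mirlet7c-1 (1.33, adjusted p = 0.0137) were higher in cKO. The 7 germ cell miRNAs summed to 2184.0 to 5074.3 RPM in cKO and 19821.5 to 26208.1 RPM in control testicular sperm. The red cell miRNAs summed to 3483.3 to 19486.3 RPM in cKO and 8154.6 to 34948.0 RPM in control libraries, and their part in the result was not tested.

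In Stra8 cauda sperm no member was called, against 5.59% of 1091 features. Mirlet7g had 413.0, 370.7, 156.2 and 188.6 RPM in cKO and 308.5, 472.7, 353.2 and 409.5 RPM in control cauda sperm. The cKO libraries fell into 2 higher and 2 lower ones, and the same replicates 3 and 4 were the lowest for Mirlet7i (157.4 and 178.7 RPM) and for the summed level (2684.0 and 3286.0 RPM). In these libraries the epithelial miRNAs summed to 1132.6 and 1321.3 RPM, against 4911.8 and 4937.4 RPM in cKO replicates 1 and 2. The part of epithelial RNA in this split was not tested. Log2 fold changes of the 9 members were −0.64 to 0.06, with a median of −0.45 beside −0.19 over all features. The germ cell miRNAs summed to 1353.7 to 1768.4 RPM in cKO and 3418.4 to 7999.1 RPM in control cauda sperm, with no overlap.

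In Defb41 testicular sperm, taken before sperm reach the caput, none of the 9 members was called, against 1.5% of 2062 features. Mirlet7i had 1504.8, 1806.2, 521.6 and 868.8 RPM in cKO and 1261.4, 377.2, 581.2 and 764.4 RPM in control sperm, and the groups overlapped. All 9 log2 fold changes were positive, 0.48 to 0.66, beside an all-feature median of 0.40. In DESeq2 they were −0.27 to 0.07, so the family as a whole is given no direction.

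In Defb41 cauda sperm none of the 9 members was called either, against 12.3% of 2178 features, 8 of which were higher and 259 lower. Mir98 had 19.51 to 1250.2 RPM in the 8 cKO libraries (median 80.91) and 22.03 to 232.1 RPM in the 8 controls (median 46.3). Its log2 fold change, with library series as a term, was 1.43 (SE 0.53, adjusted p = 0.0670). Mirlet7i had 79.91 to 7827.8 RPM in cKO libraries (median 408.2) and 168.1 to 1043.9 RPM in controls (median 234.1), with a log2 fold change of 1.37 (SE 0.56, adjusted p = 0.118). All 9 values were positive (0.10 to 1.43, median 0.74, beside 0.08 over all features), but −0.32 to 0.46 when scaled to miRNA reads. Without cKO replicate 5 they were −0.05 to 0.41, and Mir98 was at 0.41 (adjusted p = 0.780). Mir98 passed the threshold when any of 6 other libraries was left out, with an adjusted p as low as 0.0212. Within the first library series alone its log2 fold change was 0.76 (adjusted p = 0.707), and within the second, which holds replicate 5, it was 2.10 (adjusted p = 0.131). The germ cell miRNAs summed to 66.97 to 783.9 RPM in cKO and 845.4 to 4309.6 RPM in control cauda sperm.

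**Figure D4:**
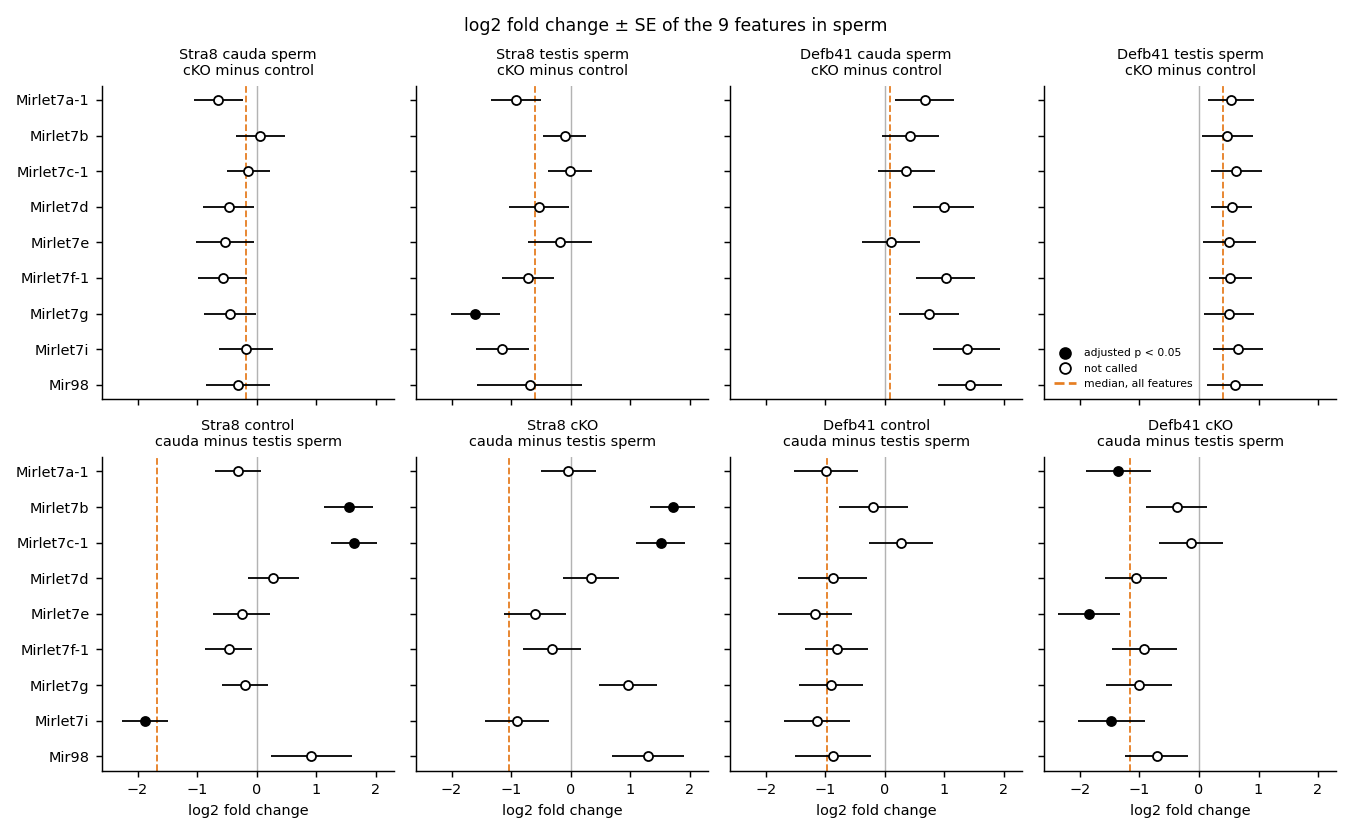
Log2 fold change ± SE of each of the 9 features in sperm from edgeR, with cKO minus control in the upper row and cauda minus testicular sperm in the lower row. Filled points have an adjusted p under 0.05 and dashed lines are the medians of all features tested. Mirlet7g in Stra8 testicular sperm is the only filled point of the upper row. Mirlet7b and Mirlet7c-1 lie right of the dashed line in all 4 lower panels, as most other members do in the Stra8 panels.

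In the epididymis itself, no let-7 member was called in any of the 4 genotype comparisons. In Stra8 cauda epididymis the 9 log2 fold changes were −0.16 to 0.09 (1.95% of 1025 features called), with standard errors of 0.14 to 0.19. In Stra8 caput epididymis all 9 were negative, −0.41 to −0.15, with a median of −0.32 beside −0.45 over all features; with TMM factors they were −0.20 to 0.052. edgeR called 0% of the 1064 features there, with 103 at an unadjusted p under 0.05, and DESeq2 called no member. Mirlet7c-1, the member with the lowest value, had 483.2 to 786.3 RPM in 7 cKO libraries (median 711.5) and 602.2 to 1206.6 RPM in 7 controls (median 796.5), and the ranges overlapped.

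In Defb41 cauda epididymis the 9 values were −0.57 to −0.01 (6.36% of 1117 features called), beside an all-feature median of −0.53. With TMM factors or in DESeq2 all 9 were positive, so no direction is given. In Defb41 caput epididymis, where this Cre acts, values were −0.35 for Mirlet7b to 1.49 for Mirlet7i, and edgeR called 0% of the 1406 features, with 63 at an unadjusted p under 0.05. Without control replicate 1, Mirlet7b was at 0.89 and Mirlet7f-1 at 2.94 (adjusted p = 0.197), beside 1.34 for Mirlet7f-1 with all libraries, and without control replicate 2 the 9 values were −0.68 to 1.25. Mirlet7i had 1216.7 to 1557.4 RPM in the 3 cKO libraries and 313.3 to 789.1 RPM in the 3 controls, with no overlap, a standard error of 0.87 and an adjusted p of 0.632. The smooth muscle miRNAs Mir143 and Mir145a, 2 of 3 listed, summed to 79703.5 to 166830.3 RPM in these cKO and 26635.1 to 62840.0 RPM in control libraries, and their part in the let-7 values was not tested. Among markers, Mir451a was at 0 in a cKO library and Mir144 and Mir871 in a control library.

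Along the epididymis of Stra8 controls no member was called between cauda and caput, against 42.2% of 1054 features. Mirlet7a-1 had 296.8 to 842.6 RPM in 6 cauda libraries (median 437.6) and 235.7 to 508.8 RPM in 7 caput libraries (median 333.3), with a log2 fold change of 0.52 (SE 0.23, adjusted p = 0.0747). Within the first library series alone Mirlet7b was called lower in cauda (−0.60, adjusted p = 0.0408), and within the second Mirlet7a-1 (0.92, adjusted p = 0.0257) and Mirlet7d (0.94, adjusted p = 0.0238) were called higher. In Defb41 controls none was called, and edgeR called 0% of 1298 features, with 360 at an unadjusted p under 0.05. Without caput control replicate 1, Mirlet7f-1 was called higher in cauda (2.30, adjusted p = 0.0414).

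Cauda sperm and the cauda epididymis around them were compared in Stra8 controls. Mirlet7g had 308.5, 472.7, 353.2 and 409.5 RPM in cauda sperm, against 955.0 to 1440.6 RPM (median 1328.2) in 6 tissue libraries. Mirlet7i had 264.9, 436.8, 287.6 and 348.7 RPM in cauda sperm and 771.8 to 1245.7 RPM (median 1010.5) in tissue. Neither overlapped. Mirlet7g was lower in sperm by a log2 fold change of −1.69 (SE 0.40, adjusted p = 0.00124) and Mirlet7i by −1.57 (SE 0.40, adjusted p = 0.00254), whereas 63.5% of the 1106 features were higher in sperm and 8.05% lower, 71.5% in all, with a median of 1.80. Mirlet7a-1, Mirlet7b, Mirlet7c-1 and Mirlet7e had values of 0.22 to 0.61 and were not called. With TMM factors or in DESeq2 all 9 members were lower in sperm. Scaled to miRNA reads, 5 members were higher and Mirlet7g (0.33) and Mirlet7i (0.43) were not called, so the direction holds relative to all reads and after composition scaling, and not relative to miRNA reads. For these alternatives the share of all features called is not given, so the counts are not a result about let-7 alone. Smooth muscle miRNAs summed to 4253.4 to 6734.1 RPM in these sperm and 190990.7 to 450131.8 RPM in tissue, and their part in the result was not tested.

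The miRNA features whose group means most resembled the summed let-7 level over the 16 groups were Mir1a-1 (Spearman rho 0.912), Mir1b (0.903), Mir125b-1 (0.891), Mir125b-2 (0.888) and Mir99a (0.877), of 1096 features ranked. The groups share lines, libraries of a type and a wide range of miRNA content, and the values are given as a description. As background, Mir99a and Mir125b-2 lie beside Mirlet7c-1 in the genome, Mir125b-1 lies in Mir100hg with Mirlet7a-2, and Mir1a-1 is known from muscle.

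Mirlet7bhg, the host transcript, was measured in tissue mRNA in TPM, a read share corrected for transcript length. In Stra8 cauda epididymis it had 9.44, 4.69, 10.87 and 9.01 TPM in cKO and 2.6, 3.74, 3.57 and 3.82 TPM in control libraries. In Stra8 caput epididymis it had 9.67, 28.3 and 29.33 TPM in cKO libraries, against 5.04, 0 and 5.62 TPM in controls. In both segments every cKO library lay above every control library. The control library listed at 0 also detected the fewest genes, 11958, against up to 17079 in others.

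On the log2(TPM + 1) scale, limma gave a difference of 1.06 in cauda (SE 0.23, unadjusted p = 0.000834, adjusted p = 0.322), where it called 0% of 11527 genes with 1461 at an unadjusted p under 0.05. In caput the difference was 2.63 (SE 0.83, unadjusted p = 0.0189, adjusted p = 0.331), where 0.824% of 11776 genes were called, 0.807% higher and 0.017% lower. Neither passed the threshold. The replicate numbers paired the libraries in both segments, and with the replicate block the cauda difference was called (1.06, adjusted p = 0.0478, 295 genes called) and the caput one was not (adjusted p = 0.245, 322 genes called). Germ cell mRNAs moved with it. The protamines and transition proteins Prm1, Prm2, Tnp1 and Tnp2, with Odf1, summed to 2466.9 to 8409.1 TPM in cauda cKO and 536.7 to 2696.4 TPM in cauda control libraries, and to 2665.8 to 4165.6 TPM in caput cKO and 565.6 to 793.4 TPM in caput control libraries. Their part in the Mirlet7bhg difference was not tested. Dgcr8 mRNA, the targeted gene, differed by −0.50 in cauda (adjusted p = 0.385) and 0.00 in caput, in a tissue outside the germ cells in which this Cre is active.

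Between cauda and caput of the Stra8 controls, Mirlet7bhg differed by 0.36 (SE 0.60, adjusted p = 0.647, 39.8% of 12115 genes called, 21.1% higher and 18.7% lower). Without the caput library at 0 it was −0.52 (adjusted p = 0.0977), so this library alone set the sign.

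The mRNA libraries labelled Defb41 gave far larger differences, and their labels are in doubt. Crisp1, made in the distal epididymis, was at 5775.9 to 9667.4 TPM in libraries labelled cauda cKO and 0.58 to 3.36 TPM in those labelled cauda control, although Stra8 cauda libraries held 3503.2 to 7220.6 TPM. Lcn8, a caput lipocalin, was at 0.43 to 1.82 TPM in libraries labelled caput cKO and 25154.5 to 42335.8 TPM in those labelled caput control. Libraries labelled cKO thus carried cauda markers in both segments, those labelled cauda control carried Gpx5, a caput mRNA, at 7260.7 to 35731.2 TPM but Lcn8 at only 22.23 to 572.5 TPM, and segment and genotype cannot be told apart in them.

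Mirlet7bhg had 4.46, 4.12, 2.82 and 2.83 TPM in libraries labelled Defb41 cauda cKO, against 98.64, 100.31, 94.88 and 172.65 TPM in those labelled cauda control. It had 2.55, 3.31, 3.28 and 3.86 TPM in libraries labelled caput cKO and 19.18, 8.79, 7.35 and 4.34 TPM in those labelled caput control. In both, every library labelled cKO lay below every library labelled control, and the cauda controls were the highest of all 30 libraries. As labelled, limma gave −4.66 in cauda (SE 0.26, adjusted p = 2.94e-07, 25.7% of 12065 genes called, 7.18% higher and 18.5% lower) and −1.20 in caput (SE 0.33, adjusted p = 0.0108, 50.4% of 11977 genes called, 32.6% higher and 17.9% lower). Germ cell mRNAs summed to 2.02 to 864.3 TPM in libraries labelled cauda cKO and 1.08 to 3818.3 TPM in those labelled cauda control. The cauda control libraries had sums of 1.08, 28.79, 2578.2 and 3818.3 TPM, and the part of germ cell mRNAs in the Mirlet7bhg difference was not tested. Dgcr8 was at 1.71 to 4.12 TPM in cauda cKO and 0.55 to 2.94 TPM in cauda control libraries.

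**Figure D5:**
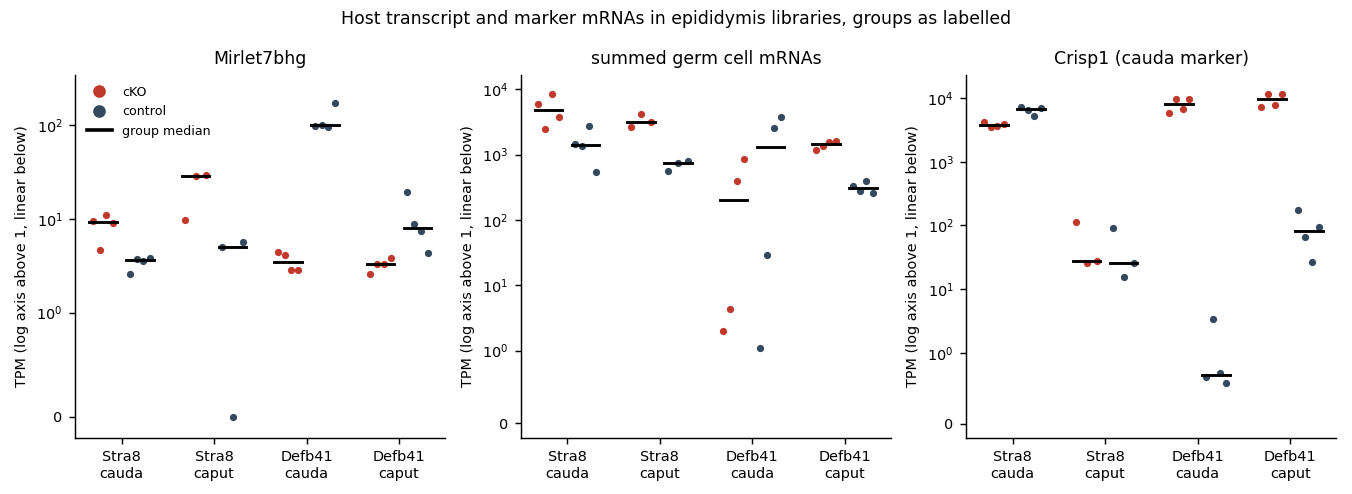
Mirlet7bhg, the summed germ cell mRNAs and Crisp1 in each tissue mRNA library, in TPM on an axis that is logarithmic above 1 and linear below, groups as labelled. Points are libraries (cKO red, control blue) and bars are group medians; Mirlet7bhg is at 94.88 to 172.65 in libraries labelled Defb41 cauda control, whose Crisp1 level is 0.58 to 3.36.

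The genes whose levels most resembled Mirlet7bhg over the 30 tissue mRNA libraries were Foxq1 (Pearson r 0.889), Tcirg1 (0.873), Spaca6 (0.857), Rin1 (0.852) and Rgs12 (0.842), of 11577 genes. Libraries of a group share their source, and the 4 labelled Defb41 cauda control carry the highest Mirlet7bhg values, so the r is a description only. Spaca6, a sperm membrane protein gene, is itself the host of let-7e. It had 1.98 to 3.3 TPM in libraries labelled Defb41 cauda cKO and 27.28 to 48.74 TPM in those labelled cauda control, a log2 difference of −3.33 (adjusted p = 6.78e-06), and 2.57 to 3.16 TPM and 5.04 to 11.11 TPM in those labelled caput cKO and caput control (−0.99, adjusted p = 0.00334).

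Of the 5 host genes, none was called between genotypes in either Stra8 segment, where 0 of 11527 genes in cauda and 97 of 11776 in caput were. As labelled, Huwe1 (0.68) and Wdr82 (0.57) were higher and Mirlet7bhg and Spaca6 lower in Defb41 caput cKO, and Mirlet7bhg, Spaca6 and 2610203C20Rik (−1.69, adjusted p = 0.00735) were lower in Defb41 cauda cKO. These were 4 of 5 hosts in caput, beside 6042 of 11977 genes called, and 3 of 5 in cauda, beside 3099 of 12065. Between cauda and caput of Stra8 controls, Spaca6 fell by 1.12 (adjusted p = 0.00527), 1 of 5 hosts, beside 4821 of 12115 genes called. Mirlet7e had 2337.9 to 2954.1 RPM in cauda cKO and 2043.1 to 3450.0 RPM in cauda control small RNA libraries, which overlapped. No comparison of host and mature form is drawn from these, given the doubt over the mRNA labels.

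The let-7 processing genes, a list of 14 of which 12 were in the table, include the terminal uridylases (listed as Zcchc11 and Zcchc6), the exonuclease Dis3l2 that degrades uridylated pre-let-7, and the loop-binding proteins Khsrp and Hnrnpa1. Lin28a and Lin28b were at most 0.08 and 0.02 TPM in any group and were not tested. None of the tested genes was called between genotypes in Stra8 cauda (8 tested) or Stra8 caput (9 tested), nor, as labelled, in Defb41 cauda (9 tested). As labelled, 4 of 9 were higher in Defb41 caput cKO, namely Hnrnpa1 (1.51), Dis3l2 (1.38), the export factor Xpo5 (1.12) and Dgcr8 (0.62, adjusted p = 0.0196). In that comparison 50.4% of all genes were called, 32.6% higher, and the list median was 0.46 beside 0.24 over all genes. In cauda against caput of Stra8 controls, Dis3l2 (1.11) and Xpo5 (0.81) were higher and Khsrp (−0.96) lower. These were 3 of 9 tested, beside 4821 of 12115 genes called, and the list median was 0.22 beside 0.11.

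Among 32 known let-7 targets, 23 were tested in each Stra8 segment and none was called between genotypes, with list medians of −0.25 in cauda and 0.24 in caput beside −0.15 and 0.21 over all genes. As labelled, 1 of 25 was higher and 3 lower in Defb41 cauda cKO, where 25.7% of all genes were called, and 9 of 24 were higher and 4 lower in Defb41 caput cKO, where 50.4% were. The caput count is near that share and the cauda count below it. Ccnd2, a cyclin, had 6.19 to 16.78 TPM in libraries labelled caput cKO and 0.6 to 0.82 TPM in those labelled caput control, a log2 difference of 2.88. Thbs1 (1.81), Myc (1.39), Mycn (−1.43) and Limd2 (−1.07) followed. In Stra8 controls, cauda against caput, 4 of 24 were higher and 5 lower, near the 39.8% of all genes called there. There Ccnd2 had 3.7 to 10.48 TPM in cauda and 0 to 1.15 TPM in caput (2.39), and Thbs1 (1.76), Mycn (−1.23), Irs2 (−1.22), Igf1r (−1.05) and Nras (0.97) were also called. Mycn, the neural Myc gene, had 0.09 to 0.97 TPM in libraries labelled Defb41 cauda cKO and 6.22 to 8.17 TPM in those labelled cauda control (−2.58, adjusted p = 4.18e-05), and the other targets called there were Ccnd2 (1.55), Limd2 (−0.94) and Hras (−0.79). The targets called in the libraries labelled Defb41 thus went both ways, and the segment markers above moved with them.

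In single embryos made with these sperm, Mirlet7bhg was at or near the floor of the tables. It was above 0 in 4 of 313 embryos, all of them morulae, with a highest value of 0.79 TPM. Of these, 2 came from Defb41 cKO sperm with control RNA injected, 1 from Defb41 cKO sperm with miRNA injected (0.62 TPM) and 1 from Stra8 cKO testicular sperm (0.35 TPM). No embryo from control sperm had a value above 0, and no comparison was made at these levels. The morula groups from control sperm held 27, 20 and 26 embryos, and those from cKO sperm 21, 22, 24 and 22.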

How the data were processed

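Small RNA libraries were made from gel-isolated RNA of 18 to 40 nt, and the deposited tables give read counts per feature, per the labels. The deposited mRNA tables of epididymis and embryos give TPM, per the file headers. The submitters' processing notes list Bowtie2 and RSEM, without versions, and the build is mm10 per the labels. The counting of reads that match several copies is not given in the sources used here.

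RPM are counts per 1000000 reads of a library's table. Counts were tested with edgeR 4.0.16 (quasi-likelihood, library size equal to the table total, no composition factor, features reaching 10 counts in at least the number of libraries in the smaller group, Benjamini-Hochberg over all features, threshold 0.05; SE is the fold change over the root of F). Library series was a term for Defb41 cauda sperm genotype and for Stra8 epididymis. TPM were tested with limma 3.58.1 (trend, robust) on log2(TPM + 1), for genes reaching 1 TPM in at least that number of libraries. DESeq2 1.42.0, TMM factors, scaling to miRNA reads, other filters, a pseudocount of 0.1, the replicate block and leaving out each library were alternatives. R was 4.3.3, and both fits were tested on simulated data.

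All 10 members and Dgcr8 are named. Of the processing, target and host lists, those past the threshold are named, at most 6 per comparison by size, and the closest 5 features by correlation. A further target that this rule selects is not reported here. The members and lists were chosen with earlier results of these data known. Same-numbered libraries deviated together (every pair's r over 0.1) in 6 of 22 comparisons, namely Defb41 cauda sperm genotype, Stra8 caput and cauda small RNA genotype, Stra8 control cauda against caput, and both Stra8 mRNA genotype comparisons. The miRNA totals of the small RNA tables equalled the deposited class table in 74 libraries and were 1.03 to 2.08 times it in the 8 of the second Defb41 cauda sperm series. In the tables read, 1 column matched no sample and was not used, and 1 library with conflicting labels was in no comparison.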

Additional observations from a re-analysis of the deposited data

Results flagged for a closer look

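In groups of 4 to 10 libraries, 136 sets of values were checked for a library far from the others, and 21 were flagged. For a single set chance alone gives about 1 in 20. The sets share libraries, and the summed level contains the members, so the count of flags cannot be set against that rate. Replicate 5 of Defb41 cKO cauda sperm was far above its group for Mirlet7a-1 (12735.4 RPM), Mirlet7d (3546.2), Mirlet7f-1 (18496.8), Mirlet7g (4707.4), Mirlet7i (7827.8), Mir98 (1250.2) and the summed level (51493.0). In the same group replicate 8 was the far library for Mirlet7b (496.7 RPM) and Mirlet7e (736.5). Control replicate 8 of Defb41 cauda sperm was far above the other controls for Mirlet7a-1 (4555.4 RPM), Mirlet7c-1 (3487.1), Mirlet7d (961.3), Mirlet7e (512.1), Mirlet7f-1 (5495.0), Mirlet7g (2037.1), Mirlet7i (1043.9), Mir98 (232.1) and the summed level (18701.6). These libraries all belong to the second library series.

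Mir98 in Stra8 control cauda sperm was highest in replicate 2 (126.0 RPM), and in Defb41 control cauda epididymis lowest in replicate 1 (96.16 RPM, next 188.7). Mirlet7bhg in libraries labelled Defb41 cauda control was highest in replicate 4 (172.65 TPM, next 100.31).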

How the results depend on the processing

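Of 2448 member values recomputed under an alternative, 2328 kept their side of the threshold and, where called, their direction; 237 of these were called in neither fit and had the other sign. A further 21 lost a call, 69 gained one and 30 reversed. Reversed means that the sign changed and the value was called in only 1 of the 2 fits. Where counts of called members moved, the cause was not tested. The shares of all features called under these alternatives are not given, so the counts below describe the members only. With TMM factors 8 members were called in Stra8 control transit, 5 in Stra8 cKO transit, 0 in Defb41 cKO transit, 1 between Stra8 control cauda and caput and 9 between cauda sperm and tissue. DESeq2 called 8 in Stra8 control transit, 8 in Stra8 cKO transit, 2 in cauda against caput and 9 in sperm against tissue. Scaled to miRNA reads the counts were 2 for Stra8 testicular sperm genotype, 5 for Defb41 control transit (all lower), 8 for Defb41 cKO transit (all lower), 1 for cauda against caput and 5 for sperm against tissue. With the replicate block, where the numbers did not pair the libraries, 4 were called in Stra8 cKO transit and 1 in Defb41 cKO transit. For Stra8 control cauda against caput, the first library series alone gave 1 and the second 2.

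Values that reversed were, in Stra8 control transit with TMM and DESeq2, Mirlet7a-1 (1.68 in both), Mirlet7e (1.88, 1.90), Mirlet7f-1 (1.59, 1.602), Mirlet7g (1.79, 1.81) and Mirlet7i (0.12, 0.14). In Stra8 cKO transit DESeq2 gave Mirlet7a-1 1.57, Mirlet7e 1.01 and Mirlet7f-1 1.31, and in Defb41 cKO transit Mirlet7a-1 0.16, Mirlet7b 1.05, Mirlet7c-1 1.40 and Mirlet7i 0.092. Between cauda sperm and tissue, TMM and DESeq2 gave Mirlet7a-1 −1.76 and −1.55, Mirlet7b −1.72 and −1.52, Mirlet7c-1 −1.81 and −1.60 and Mirlet7e −1.40 and −1.17, and miRNA scaling gave Mirlet7f-1 1.30, Mirlet7g 0.33 and Mirlet7i 0.43. In Stra8 testicular sperm genotype miRNA scaling gave Mirlet7b 1.31 and Mirlet7c-1 1.33.

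Leaving out 1 library at a time, members called ranged from 0 to 4 for Stra8 testicular sperm genotype, 0 to 1 for Defb41 cauda sperm genotype, 2 to 4 for Stra8 cKO transit, 0 to 1 for Defb41 control transit, 1 to 3 for Defb41 cKO transit, 0 to 1 for Defb41 cauda against caput and 2 to 3 for sperm against tissue. The Mirlet7bhg difference ranged from 1.74 to 3.12 in Stra8 caput, 0.93 to 1.29 in Stra8 cauda, −1.48 to −0.84 in Defb41 caput, −4.76 to −4.46 in Defb41 cauda and −0.52 to 0.84 for cauda against caput. With the replicate block the Stra8 cauda value was 1.06 (adjusted p = 0.0478); where the numbers paired the libraries the block changed no other member's call. Depth was not varied; the shallowest library had 615991 reads, beside a median of 8875492.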

Other observations

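The Stra8 caput small RNA library whose title and genotype label disagree had 6831891 reads, of which 63.8% were miRNA. Its summed let-7 level was 5159.3 RPM, with 277.5 RPM of Mirlet7a-1, 316.3 of Mirlet7b, 676.4 of Mirlet7c-1, 1992.6 of Mirlet7f-1, 830.4 of Mirlet7g and 857.9 of Mirlet7i. Its Mirlet7b level lay above the 7 Stra8 caput cKO libraries (153.9 to 267.2 RPM) and within the 7 controls (211.2 to 319.9 RPM), and its summed level lay within both groups.

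The small RNA tables also list a feature under the name Mirlet7bhg among the miRNAs. It had 4.218 to 357.1 RPM in Defb41 cKO cauda sperm (median 34.3) and 3.696 to 171.3 RPM in Defb41 control cauda sperm (median 50.22), and 21.23 to 92.09 RPM in Defb41 cKO and 6.821 to 87.47 RPM in Defb41 control testicular sperm. In Stra8 sperm it was lower, with 0 to 0.196 RPM in cKO and 0 to 0.112 RPM in control cauda sperm, and 0 to 1.53 RPM in cKO and 0 to 5.15 RPM in control testicular sperm. Which bases of the host transcript these reads cover is not given by the tables.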
